A study of Mus musculus with 12 samples.

Results

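The Iroquois and Notch-Hey genes described here are 10 of the 20775 genes listed in each of the 2 expression tables of a study of Med30 in the mouse heart. They were taken by name: the Iroquois genes Irx3, Irx4 and Irx5, the Hey genes Hey1, Hey2 and Heyl, the receptors Notch1 and Notch2, and the ligands Jag1 and Dll4. All 10 were found in both tables. No measured value entered the rule, but the genes were chosen with earlier results of these data known. The study had already reported Hey2 as lower in its E10.5 knockout hearts. The number of members called below is therefore not independent of these data.

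Iroquois genes encode homeodomain transcription factors. In the heart, Irx4 marks ventricular myocardium, Irx3 is known for the ventricular conduction system and Irx5 for the gradient of repolarizing current across the ventricular wall. Notch receptors are cleaved after a ligand of the Jagged or Delta-like kind on a neighbouring cell binds them, and the freed intracellular part joins the DNA-binding protein RBPJ to switch on targets such as the Hey genes. Hey proteins are basic helix-loop-helix repressors: Hey2 is known from the compact ventricular myocardium, Hey1 from the atria and the endocardium, and Heyl from vascular smooth muscle and endothelium.

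RNA was sequenced from 12 samples in 4 groups of 3. At E10.5, in mid-gestation, whole hearts of Med30 cKO embryos, which carry floxed Med30 alleles (Med30 f/f, exon 1 between loxP sites) and Tnnt-Cre, a Cre driven by the troponin T promoter in developing cardiomyocytes, were compared with hearts of Cre-negative Med30 f/f littermates (Ctrl); whole hearts also hold cells in which this Cre is not active. In adults of 3 months, cardiomyocytes isolated 4 weeks after tamoxifen from Med30 icKO mice, which carry Med30 f/f and the tamoxifen-inducible αMHC-MerCreMer, a Cre driven by the cardiac α-myosin heavy chain promoter, were compared with those of tamoxifen-treated Cre-negative Med30 f/f mice (Ctrl). All mice of both stages carried the floxed alleles on a C57BL/6 background, the labels call the controls wild type, and no Ctrl group carried Cre, so that an effect of Cre in these libraries cannot be told apart from the loss of Med30. The labels do not say whether replicates came from separate animals, so p values measure the spread between these samples, which may be technical.

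Expression is given as RPKM, the depth- and length-scaled read number per gene that the authors deposited. From the spacing of low values, the libraries were estimated to hold 12 to 20 M counted reads. The deleted gene, Med30 (GRCm38 chromosome 15, 52712408 to 52730564), was lower in both knockouts. In E10.5 hearts it went from 11.7 ± 1.42 RPKM (SD, n = 3) in Ctrl to 1.47 ± 0.516 in cKO (log2 fold change -2.96, limma adjusted p = 0.000367), and in adult cardiomyocytes from 7.59 ± 0.119 in Ctrl to 2.93 ± 1.01 in icKO (-1.40, adjusted p = 0.000403). The adult icKO libraries differed from Ctrl as a whole: over the 9517 genes tested, the median log2 fold change was 0.57, against -0.13 over the 10885 genes tested at E10.5. For the adult members and pathway genes that were tested, the difference from that median is therefore given beside the fold change. Summed RPKM of 8 cardiomyocyte markers ranged from 3936 to 5096 in E10.5 Ctrl, 3192 to 3788 in cKO, 17279 to 18558 in adult Ctrl and 7052 to 8395 in adult icKO. In bulk RNA, fewer cells of a type and less RNA per cell cannot be told apart.

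The order of the members by level, in RPKM and so per length, was not the same in embryonic hearts and adult cardiomyocytes (the 2 tables were scaled separately). In E10.5 Ctrl hearts Irx4 (17.6 ± 1.38) and Hey2 (17.6 ± 0.74) stood highest with overlapping ranges, Notch1 (9.04 ± 0.596) and Jag1 (8.63 ± 0.603) overlapped below them, and Irx5, Irx3, Notch2 and Hey1 (4.64 to 6.57) followed, each overlapping its neighbour. Dll4 (2.62 ± 0.368) and Heyl (0.646 ± 0.0766) were each apart from the gene above. In adult Ctrl cardiomyocytes the first 4 places were set apart from one another and held by Irx3 (12.2 ± 2.49), Irx4 (6.83 ± 0.221), Irx5 (3.20 ± 0.868) and Notch2 (2.0 ± 0.262). The other 6, Hey2, Notch1, Dll4, Jag1, Heyl and Hey1, lay between 0.312 and 1.05 RPKM on average, and each overlapped its neighbour in the order. In adult icKO cardiomyocytes Notch2 (4.27 ± 0.304), Irx3 (3.96 ± 1.17) and Irx4 (3.91 ± 0.711) overlapped at the top.

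**Figure D1:**
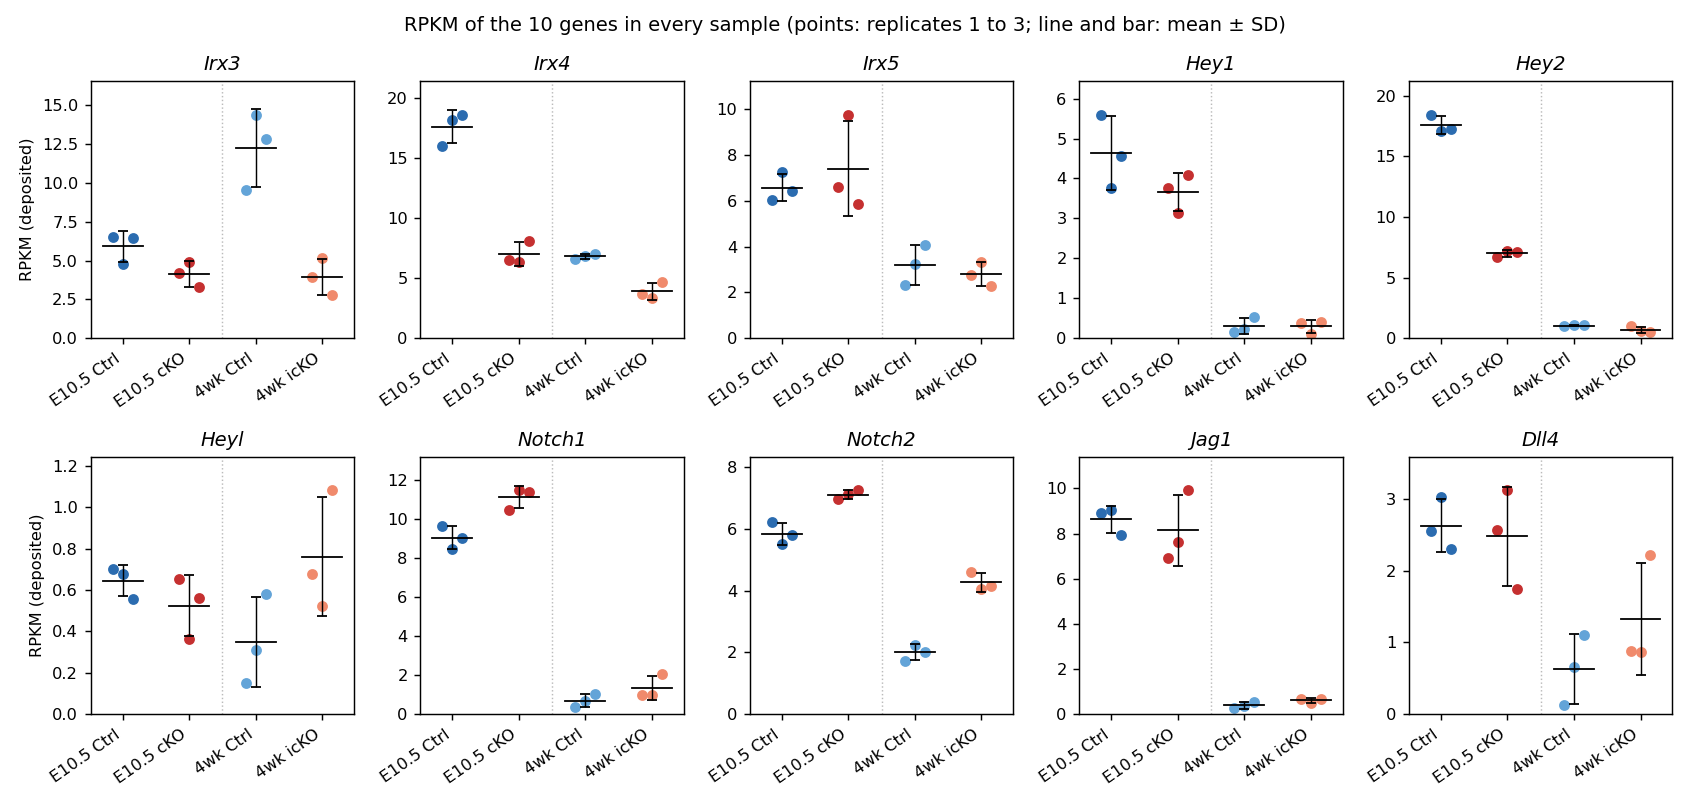
RPKM of each of the 10 genes (vertical axis, linear, each panel with its own range) in each of the 12 samples, by group, with lines and bars for the mean ± SD of 3 samples. Irx4 and Hey2 at E10.5 and Irx3, Irx4 and, by little, Hey2 at 4 weeks lie lower in every knockout sample than in any Ctrl sample. Notch1 at E10.5 and Notch2 at both stages lie higher. Of all genes tested, 22.6% lay lower and 6.5% higher in this way at E10.5, and 18.9% and 62% at 4 weeks.

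To ask which members depend on Med30 in the developing heart, cKO and Ctrl hearts were compared at E10.5. Irx4 and Hey2 fell in cKO hearts, each to a lower level in all 3 samples, by 60.3% for Irx4 and 60.2% for Hey2 on average. No other member passed the test, in which a call needs both a limma adjusted p under 0.05 and an absolute log2 fold change above 1. Of the 9 members with a mean RPKM above 1, 2 were called lower and 0 higher (3 lower and 2 higher at an unadjusted p under 0.05), where 0.542% of all genes tested were called lower and 0.239% higher. By adjusted p alone the same 2 members were lower and 0 higher, where 3.45% and 0.864% of all genes were.

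Hey2, on chromosome 10 from 30832359 to 30842801 of the minus strand, encodes the repressor of atrial genes in the ventricle. In the 3 Ctrl hearts, in replicate order, Hey2 was at 18.5, 17.1 and 17.2 RPKM, and in the 3 cKO hearts at 6.69, 7.22 and 7.08. Every cKO heart lay below every Ctrl heart, as for 22.6% of the genes tested, and the replicates within each group differed little. The log2 fold change was -1.32 (SE 0.105, 95% interval -1.55 to -1.08, adjusted p = 0.000464). Irx4, on chromosome 13 from 73260479 to 73269608 of the plus strand, measured 16.0, 18.2 and 18.6 RPKM in Ctrl and 6.54, 6.33 and 8.12 in cKO hearts. Again the groups were apart, with cKO replicate 3 nearest to Ctrl. Its log2 fold change was also -1.32 (SE 0.131, interval -1.62 to -1.03, adjusted p = 0.00173). With median-ratio scaling, which sets the typical gene to no change, both were at -1.20 (adjusted p = 0.000518 for Hey2 and 0.00359 for Irx4, where 2.56% of all genes passed as lower).

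The promoters of the called genes are shown because Hey genes are known targets of RBPJ, and because the Hey2 start carries that factor's letters. RefSeq (GRCm38.p6) gave a promoter sequence for 7 of the 10 members, of 250 bases before and 50 after the start. Both strands were searched for the RBPJ letters GTGGGAA, the palindromic E-box CACGTG, the GATA letters AGATAA and the T-box letters AGGTGTGA, which do not overlap one another in the sequences shown. The RBPJ letters lie in 6.38% of the 32851 promoters of the table, the E-box in 7.15%, the GATA letters in 11.2% and the T-box letters in 1.28%. Hey2 held the RBPJ letters at -4 on the gene's strand and at -207 on the other strand, counted from the start, and 6 of the 7 members, Irx4 among them, held none of the 4 motifs in this window. The sequences run 5′ to 3′ on the strand of the gene, from 250 bases before the start to 10 after it, over chr10:30842774-30843033 (minus strand) for Hey2 and chr13:73260247-73260506 (plus strand) for Irx4, with the RBPJ letters in capitals.
Hey2 promoter: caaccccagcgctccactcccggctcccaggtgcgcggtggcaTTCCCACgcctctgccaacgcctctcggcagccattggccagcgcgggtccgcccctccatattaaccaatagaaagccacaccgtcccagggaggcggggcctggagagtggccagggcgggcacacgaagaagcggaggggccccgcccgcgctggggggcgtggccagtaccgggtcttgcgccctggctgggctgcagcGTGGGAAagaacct
Irx4 promoter: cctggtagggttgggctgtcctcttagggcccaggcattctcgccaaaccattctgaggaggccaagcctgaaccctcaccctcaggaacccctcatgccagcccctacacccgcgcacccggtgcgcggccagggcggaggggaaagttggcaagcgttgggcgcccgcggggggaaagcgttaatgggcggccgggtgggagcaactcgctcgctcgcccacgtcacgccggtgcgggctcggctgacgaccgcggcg

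Neither of the other Iroquois members passed the test at E10.5. Irx3, on chromosome 8 from 91798525 to 91802067, measured 6.54, 4.76 and 6.42 RPKM in Ctrl and 4.21, 4.94 and 3.31 in cKO hearts. The groups overlapped, and its log2 fold change of -0.50 (interval -0.92 to -0.0897) did not pass the adjustment (adjusted p = 0.142). The exons of Irx3os, an antisense gene on the other strand, overlap those of Irx3, and the sources used here do not say whether the counting used strand, so reads of the pair cannot be told apart. Irx5, on chromosome 8 from 92357625 to 92376286, measured 6.04, 7.23 and 6.43 RPKM in Ctrl and 6.57, 9.75 and 5.86 in cKO. Its groups overlapped and its interval of -0.28 to 0.55 around 0.14 spanned 0 (adjusted p = 0.686), and without cKO replicate 2 the value was -0.077.

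Hey1, on chromosome 3 from 8663359 to 8667256, measured 5.60, 3.76 and 4.57 RPKM in Ctrl and 3.77, 3.13 and 4.08 in cKO hearts. The ranges overlapped (log2 fold change -0.33, interval -0.72 to 0.0743, adjusted p = 0.298). Heyl, on chromosome 4 from 123233556 to 123249875, was at 0.559 to 0.702 RPKM in Ctrl and 0.362 to 0.652 in cKO, which is an estimated 29 to 64 reads, and fell below the RPKM filter. A fit without the filter gave -0.28 (interval -1.03 to 0.47, adjusted p = 0.698).

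Both Notch receptors had higher levels in cKO than in Ctrl hearts, by amounts that did not pass the adjusted test. Notch1, on chromosome 2 from 26457903 to 26516663, measured 9.65, 8.46 and 9.01 RPKM in Ctrl and 10.48, 11.47 and 11.4 in cKO hearts. Notch2, on chromosome 3 from 98013527 to 98150361, measured 6.22, 5.51 and 5.79 RPKM in Ctrl and 6.97, 7.12 and 7.25 in cKO. For both receptors every cKO heart lay above every Ctrl heart, an order that 6.5% of the genes tested showed. The log2 fold changes were 0.30 (interval 0.0476 to 0.54, adjusted p = 0.149) for Notch1 and 0.28 (0.0229 to 0.54, adjusted p = 0.18) for Notch2, and neither passed. With median-ratio scaling Notch1 was at 0.42 (adjusted p = 0.0367, where 2.48% of all genes passed as higher) and Notch2 at 0.40 (adjusted p = 0.0535). Exons of 0610009E02Rik and Gm13568 overlap Notch1 on the other strand and exons of Gm42820 overlap Notch2 on the same strand, so their reads cannot be separated from those of the receptors.

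Neither ligand was separated between the groups. Jag1, a Jagged ligand encoded on chromosome 2 from 137081456 to 137116644, measured 8.91, 9.04 and 7.93 RPKM in Ctrl and 6.91, 7.63 and 9.92 in cKO hearts (log2 fold change -0.0947, interval -0.43 to 0.24, adjusted p = 0.738). Dll4, the Delta-like ligand of endothelial and endocardial cells, on chromosome 2 from 119325784 to 119335962, measured 2.56, 3.02 and 2.30 RPKM in Ctrl and 2.57, 3.12 and 1.75 in cKO (-0.11, interval -0.62 to 0.41, adjusted p = 0.816). The Ctrl range of Dll4 lay within its cKO range. The sign of both values turned with the scaling: median-ratio scaling gave 0.0258 for Jag1 and 0.0103 for Dll4.

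Because Notch1, Dll4 and Hey1 are made in endothelial and endocardial cells as well, marker levels were set beside these values. Summed RPKM of 12 endothelial markers was 191 to 247 in Ctrl and 222 to 244 in cKO hearts, that of 5 endocardial markers 102 to 119 and 91.7 to 102, and that of 6 mural markers, Notch3 among them, 362 to 395 and 442 to 522. Most of the mural sum was Acta2, at a mean of 366 RPKM in Ctrl and 468 in cKO. None of the 10 endothelial, 4 endocardial or 5 mural markers tested was called by limma (1 lower and 3 higher at an unadjusted p under 0.05), where 0.542% of all genes tested were called lower and 0.239% higher. Per 1000 RPKM of endothelial markers, Notch1 was at 39 to 44.4 in Ctrl and 47 to 48.6 in cKO, and Notch2 at 25.1 to 28.9 and 29.2 to 31.4, so the groups remained apart on that scale too. Hey1, whose groups overlapped in RPKM, was at 19.7 to 22.6 in Ctrl and 12.8 to 17.4 in cKO on that scale, with every cKO heart below Ctrl. Irx3 was likewise apart at 25 to 30.9 and 14.1 to 20.2, while Dll4 overlapped at 10.3 to 15.9 and 7.44 to 12.8. Per 1000 RPKM of cardiomyocyte markers both Hey1 (0.955 to 1.10 and 0.919 to 1.18) and Irx3 (1.21 to 1.38 and 0.873 to 1.45) overlapped, so that the separation of these groups depended on the scale. On this second scale Hey2 was at 3.62 to 4.35 in Ctrl and 1.87 to 2.12 in cKO, and Irx4 at 3.15 to 4.62 and 1.86 to 2.14, again with no overlap. That scale leans on Actc1, at a mean of 2790 RPKM in Ctrl and 1970 in cKO. Of the 8 cardiomyocyte markers 6 had a log2 fold change below 0 and 2 above it. By limma adjusted p 0 of them passed, where 3.45% of all genes were lower and 0.864% higher. How many of all genes were apart on either scale was not computed, so these separations cannot be set against a share. The part of cell composition in these values was not tested.

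**Figure D2:**
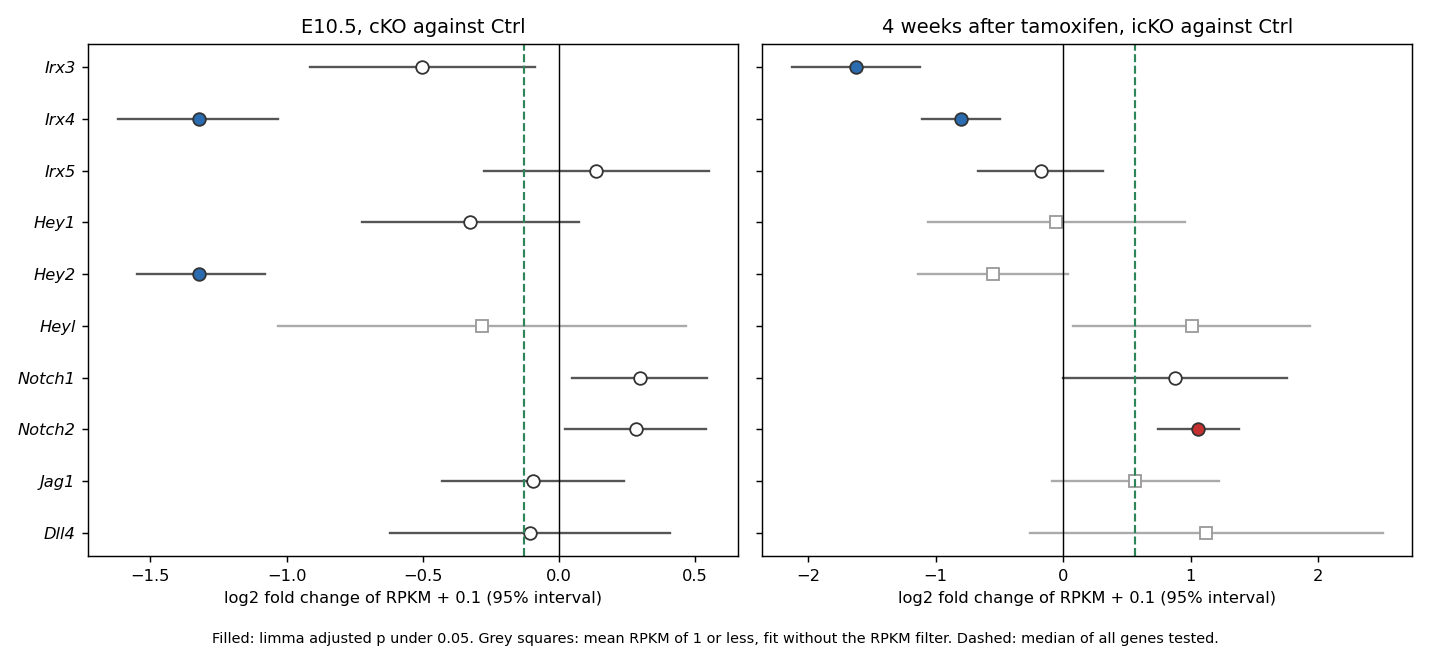
Log2 fold change of RPKM + 0.1 (horizontal axis) with its 95% interval for each of the 10 genes at E10.5 (left) and 4 weeks after tamoxifen (right). Circles are genes tested and are filled where the limma adjusted p is under 0.05, grey squares are genes with a mean RPKM of 1 or less from a fit without the filter, and dashed lines mark the medians of all genes tested, -0.13 and 0.57. Irx4 and Hey2 lie near -1.32 at E10.5, and Irx3 lies at -1.63 in adults.

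Few genes of any kind were called at E10.5, and no other gene of the pathway that was tested was among them. A list of 58 other genes in 8 groups was read from the same fit: Iroquois paralogs, other Notch receptors and ligands, the enzymes that ubiquitinate ligands, glycosylation and cleavage of receptors, the nuclear complex with its corepressors, receptor turnover, and Hes and other targets. Of its 46 genes tested 0 were called and 0 passed the adjusted p alone by limma (4 lower and 5 higher at an unadjusted p under 0.05). Of all genes tested 0.542% were called lower and 0.239% higher, and 3.45% and 0.864% by adjusted p alone, so a list of this size would hold few or no calls at those shares. The median log2 fold change of the list was -0.0135, against -0.13 over all genes. The Iroquois paralog Irx2 went from 6.73 ± 1.22 to 5.35 ± 0.733 RPKM (adjusted p = 0.278) and Irx1 from 3.58 ± 0.865 to 2.78 ± 0.916 (adjusted p = 0.4). Irx6, also a paralog, went the other way, from 1.54 ± 0.269 to 2.31 ± 0.711 RPKM (adjusted p = 0.236). Hes1, a Notch target of the Hes family, went from 6.50 ± 1.47 to 8.50 ± 1.27 (adjusted p = 0.217), and Notch3, the receptor of mural cells, from 2.76 ± 0.579 to 4.06 ± 0.392 (adjusted p = 0.104). Rbpj was at 2.91 ± 0.394 in Ctrl hearts with a log2 fold change of 0.16 (adjusted p = 0.617).

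To ask the same of adult cardiomyocytes, icKO and Ctrl cells were compared 4 weeks after tamoxifen. Irx3 fell by 67.7% and Notch2 rose 2.14-fold. Irx4 fell by 42.7%, which passed the adjusted p but not the fold threshold, and Irx5 and Notch1 passed neither. Only these 5 members had a mean RPKM above 1. Of them 1 was called lower and 1 higher, where 8.45% of all genes tested were called lower and 28% higher, and by adjusted p alone 2 were lower and 1 higher, where 18.1% and 60.6% of all genes were. A rise such as that of Notch2 was thus common among adult genes.

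In replicate order, Irx3 measured 9.51, 14.4 and 12.8 RPKM in Ctrl and 3.92, 5.15 and 2.80 in icKO cells. The lowest Ctrl sample lay well above the highest icKO sample, as for 18.9% of the genes tested. The log2 fold change was -1.63 (SE 0.223, interval -2.13 to -1.12, adjusted p = 0.000136), and relative to the median over all genes -2.19. Irx4 measured 6.59, 6.85 and 7.03 RPKM in Ctrl and 3.68, 3.35 and 4.71 in icKO cells, so the groups were apart here as in the embryo. Its log2 fold change was -0.80 (SE 0.136, adjusted p = 0.000512), or -1.37 relative to the median, and with median-ratio scaling it was -1.36 (adjusted p = 5.47e-05), past both thresholds, as were 16.3% of all genes on the lower side. Irx5 measured 2.32, 3.23 and 4.06 RPKM in Ctrl and 2.75, 3.32 and 2.29 in icKO. Its groups overlapped (-0.18, or -0.74 relative to the median, interval -0.67 to 0.31, adjusted p = 0.467), while median-ratio scaling gave -0.72 (adjusted p = 0.0144, where 35.1% of all genes passed as lower). Without Ctrl replicate 3 the unscaled value was 0.00699.

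Per 1000 RPKM of the 8 cardiomyocyte markers, which were themselves lower in icKO cells (6 of 8 lower and 2 higher by adjusted p), the Iroquois values were ordered differently. Irx3 ranged from 0.513 to 0.833 in Ctrl and 0.366 to 0.613 in icKO, so the groups overlapped on that scale. Irx4 ranged from 0.355 to 0.396 in Ctrl and 0.399 to 0.615 in icKO, with every icKO sample above Ctrl. Irx5 ranged from 0.125 to 0.224 in Ctrl and 0.299 to 0.396 in icKO. The direction for Irx4 thus depended on the scale, per library or per cardiomyocyte marker RNA, while the Irx5 groups overlapped per library. Hey2, on few reads, turned as well, at 0.053 to 0.0622 in Ctrl and 0.0687 to 0.139 in icKO on this scale. The marker sum itself went from a mean of 17974 RPKM in Ctrl to 7700 in icKO, which raises every gene on this scale. Heyl, Notch1, Notch2, Jag1 and Dll4 also lay above every Ctrl sample in icKO on this scale, while Hey1 overlapped. The share of all genes above Ctrl on it was not computed, so these separations cannot be set against a share.

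Notch2 measured 1.73, 2.25 and 2.03 RPKM in adult Ctrl and 4.62, 4.04 and 4.16 in icKO cells. Each icKO sample stood clear of each Ctrl sample, as for 62% of the genes tested. The log2 fold change was 1.06 (SE 0.139, adjusted p = 9.99e-05), or 0.50 above the median of all genes, and median-ratio scaling gave 0.52 (adjusted p = 0.00811), which is under the fold threshold. Without Ctrl replicate 1 it was 0.97, also under that threshold. Notch1 measured 0.366, 0.664 and 1.02 RPKM in Ctrl and 0.965, 1.0 and 2.03 in icKO, with Ctrl replicate 3 above the lower icKO samples. Its log2 fold change of 0.88 (0.31 relative to the median, interval 0.000929 to 1.76) had an adjusted p of 0.0622, and was 0.55 (adjusted p = 0.184) without Ctrl replicate 1 and 1.18 (adjusted p = 0.0193) without Ctrl replicate 3.

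The remaining 5 members were low in adult cells, and their values rest on few reads. Hey2 measured 0.984, 1.07 and 1.09 RPKM in Ctrl and 0.979, 0.612 and 0.526 in icKO, an estimated 33 to 48 and 16 to 42 reads. The groups came closest at icKO replicate 1, which lay just below the lowest Ctrl sample. A fit without the filter gave -0.55 (interval -1.14 to 0.0356, adjusted p = 0.1). Heyl measured 0.150, 0.312 and 0.583 RPKM in Ctrl and 0.677, 0.525 and 1.08 in icKO, or 9 to 45 and 40 to 59 reads (1.01, interval 0.0794 to 1.94, adjusted p = 0.063). Hey1 was at 0.108 to 0.534 RPKM over all 6 samples, or 4 to 22 reads, with overlapping groups (-0.0540, interval -1.06 to 0.96, adjusted p = 0.928). These values do not tell a Hey1 change within that interval from no change.

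Both ligands overlapped between the adult groups. Jag1 measured 0.262, 0.352 and 0.536 RPKM in Ctrl and 0.646, 0.489 and 0.669 in icKO cells, or 19 to 61 reads (0.57, interval -0.0840 to 1.22, adjusted p = 0.124). Dll4 measured 0.131, 0.658 and 1.11 RPKM in Ctrl and 0.873, 0.865 and 2.22 in icKO, or 6 to 100 reads (1.12, interval -0.26 to 2.51, adjusted p = 0.15). Ctrl replicate 1 was lowest and icKO replicate 3 highest for both ligands, as for Notch1 and Heyl. How many of all genes had this order was not computed. The intervals of both ligands include no change. Exons of Gm14207 overlap Dll4 on the other strand.

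The summed endothelial marker level varied between the adult samples and overlapped between the groups. Its lowest and highest samples were those of Notch1, Dll4, Heyl and Jag1. Summed RPKM of the 12 markers was 31.6, 67.3 and 82.9 in Ctrl and 74.4, 80.9 and 128 in icKO, in replicate order, with Ctrl replicate 1 lowest and icKO replicate 3 highest. By limma 3 of the 12 markers were called higher and 6 were higher by adjusted p alone, where 28% and 60.6% of all genes tested were. All 12 had a log2 fold change above 0, and 5 lay above every Ctrl sample in icKO, as did 62% of all genes tested. The sum leaned on 1 gene, Fabp4, at a mean of 35.1 RPKM in Ctrl and 47.1 in icKO, of mean sums of 60.6 and 94.5. Values per 1000 RPKM of these markers therefore lean on Fabp4 too. Per 1000 RPKM of these markers, Notch1 was at 11.6, 9.87 and 12.3 in Ctrl and 13, 12.4 and 15.8 in icKO, and Dll4 at 4.15, 9.78 and 13.4 in Ctrl and 11.7, 10.7 and 17.3 in icKO. On that scale the Notch1 groups lay side by side without overlap and those of Dll4 overlapped. Notch2, at 54.6, 33.4 and 24.5 in Ctrl and 62.0, 50 and 32.4 in icKO, overlapped as well. Heyl, at 4.64 to 7.04 in Ctrl and 6.49 to 9.10 in icKO, did so too. How many of all genes were apart on that scale was not computed. The part of endothelial RNA in these values was not tested.

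**Figure D3:**
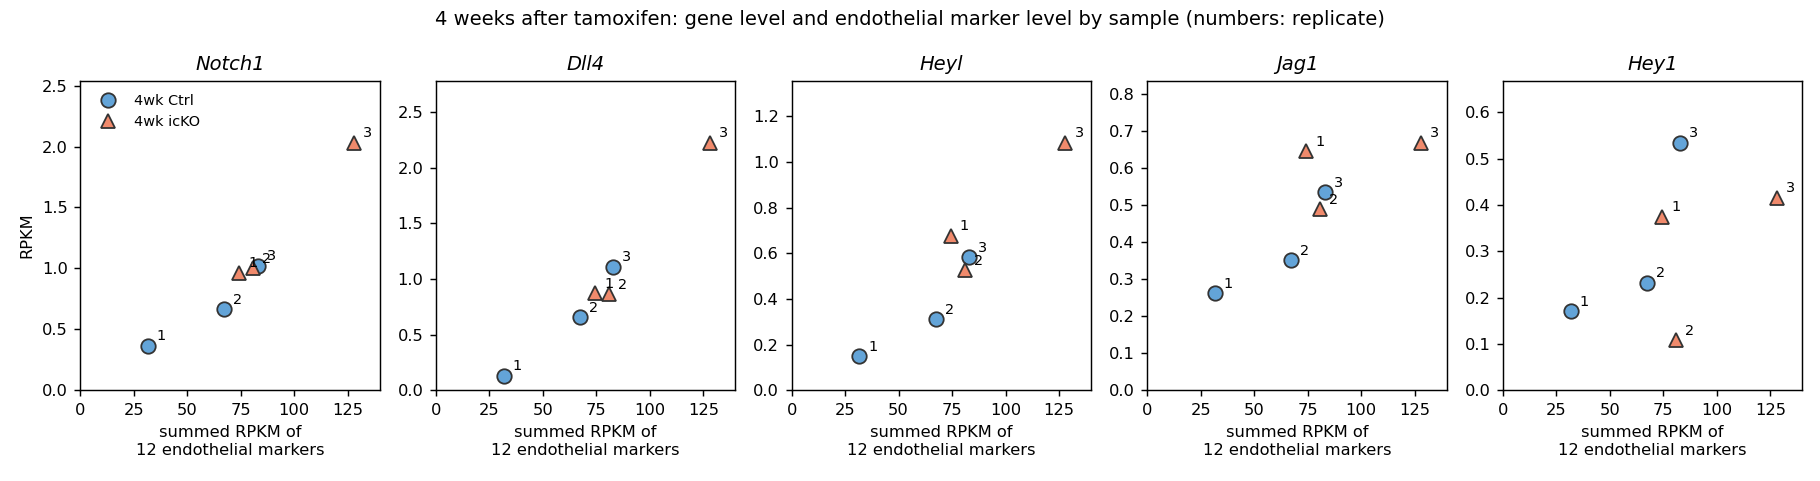
RPKM of Notch1, Dll4, Heyl, Jag1 and Hey1 (vertical axis) against the summed RPKM of 12 endothelial markers (horizontal axis) in the 6 adult samples, labelled by replicate. Ctrl replicate 1 lies lowest on the marker axis at 31.6 and icKO replicate 3 highest at 128. Notch1, Dll4, Heyl and Jag1 are highest in icKO replicate 3.

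Of the other marker lists, those of fibroblasts, macrophages and chamber and conduction genes were apart between the adult groups by summed RPKM. The sums of the mural, endocardial, epicardial and erythroid lists overlapped. Summed RPKM of 7 fibroblast markers was 4.33 to 7.49 in Ctrl and 52.2 to 73.5 in icKO (4 of 4 tested called higher, where 28% of all genes were). That of 7 macrophage markers was 2.83 to 4.51 and 6.72 to 9.59, of 6 mural markers 47 to 72.2 and 47.3 to 79.2, of 5 endocardial markers 3.9 to 6.38 and 6.09 to 7.72, of 6 epicardial markers 1.06 to 3.05 and 1.97 to 4.05, and of 9 erythroid markers 1.29 to 21.3 and 11.7 to 26.5. The chamber and conduction list of 14 genes was at 7136 to 8258 and 3257 to 4946. Most of that sum was Myl2, at a mean of 7520 RPKM in Ctrl and 3250 in icKO, while Nppa went from 136 to 957. Of the 6 genes of this list tested, 4 were called lower and 1 higher by limma, where 8.45% and 28% of all genes were. Most of the adult mural sum was Acta2, whose groups overlapped at a mean of 48.1 RPKM in Ctrl and 35.8 in icKO. Of the other mural markers, Pdgfrb, Cspg4, Myh11 and Notch3 lay above every Ctrl sample in icKO, and Rgs5 overlapped. Such a separation was seen for 62% of all genes tested. At E10.5 the fibroblast list was at 79.1 to 150 in Ctrl and 104 to 122 in cKO, the macrophage list at 8.75 to 11.5 and 4.98 to 6.82, the epicardial list at 48.9 to 57.4 and 40.2 to 57.1, the erythroid list at 329 to 1094 and 506 to 2961, and the chamber and conduction list at 3773 to 5981 and 2343 to 3034. Markers at 0 in whole groups included C1qa in E10.5 Ctrl, Sln in both E10.5 groups and Bmp10 in adult Ctrl. Their part in the values of the 10 genes was not tested.

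Within each family, the share of the members is a description that does not depend on the scaling of a library, as it sets genes of the same sample against each other. At E10.5 Irx4 made up 58.5% ± 2.20 (SD, n = 3) of the summed RPKM of Irx3, Irx4 and Irx5 in Ctrl hearts and 38.3% ± 8.44 in cKO, while Irx5 made up 21.8% ± 1.88 and 39.4% ± 6.37. The ranges of both shares were apart. Hey2 made up 77.0% ± 2.43 of the Hey RPKM in Ctrl and 62.7% ± 4.08 in cKO, and Hey1 20.2% ± 2.59 and 32.7% ± 3.00. By contrast, Notch1 made up 60.7% ± 0.169 of the RPKM of the receptor pair in Ctrl and 61.0% ± 0.839 in cKO. In adult cells the Irx3 share was 54.7% ± 3.71 in Ctrl and 36.7% ± 7.56 in icKO and that of Irx5 14.3% ± 2.37 and 26.0% ± 2.43, both with ranges apart, while Irx4 overlapped at 31.1% ± 4.14 and 37.3% ± 9.99. Thus the gene whose share was lower in knockout samples was Irx4 in the embryo and Irx3 in the adult. The adult Hey2 share went from 63.7% ± 13.2 to 41.1% ± 13.1 and that of Heyl from 19.1% ± 7.46 to 43.0% ± 10.1, on the few reads given above.

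**Figure D4:**
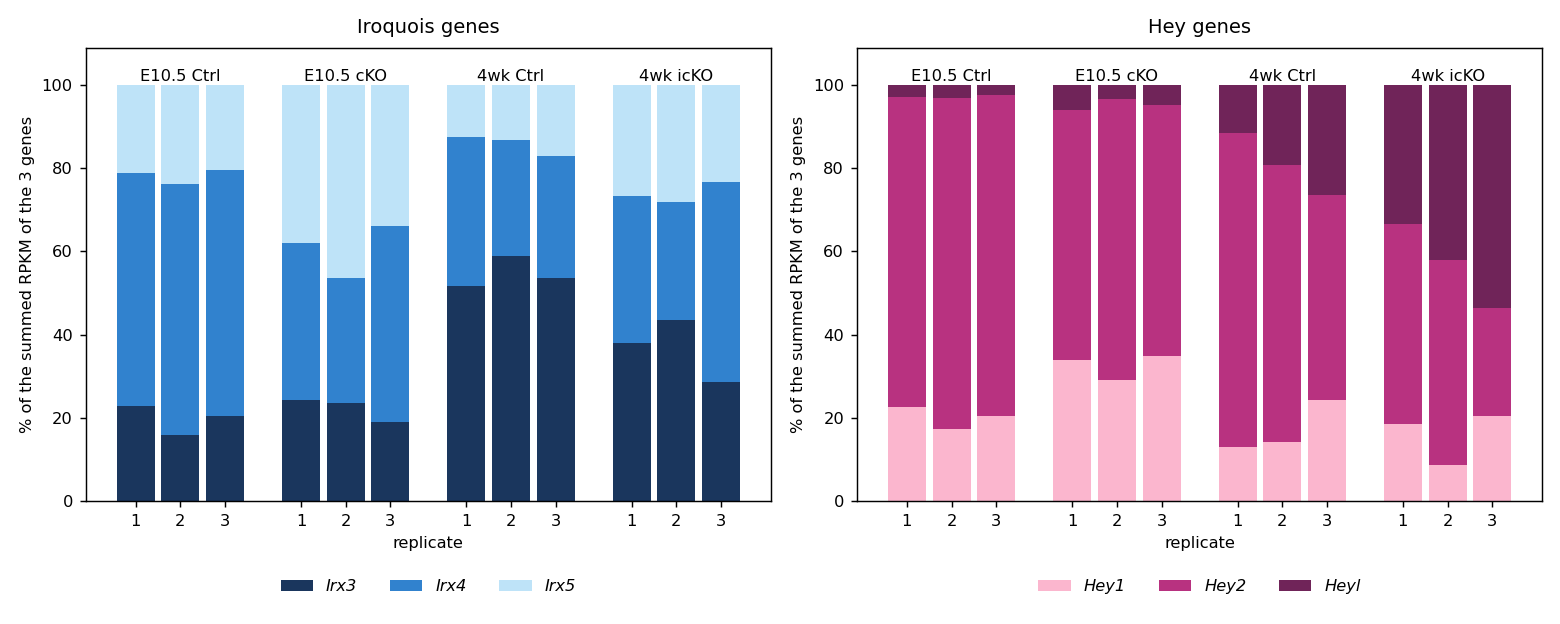
Share of each gene in the summed RPKM of Irx3, Irx4 and Irx5 (left) and of Hey1, Hey2 and Heyl (right), in percent, 1 bar per sample. The Irx4 band spans 56 to 60.3% in E10.5 Ctrl and 30.1 to 47% in cKO, and the Irx3 band spans 51.6 to 58.8% in adult Ctrl and 28.6 to 43.6% in icKO.

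Whether the knockout effect differed between the stages was tested for the 5 members with a mean RPKM above 1 in both tables, by a limma contrast between the stages over the 12 samples. The effect on Irx3 was more negative in adults, by -1.12 (SE 0.316, interval -1.80 to -0.44, adjusted p = 0.00634), and remained so with median-ratio scaling (-1.80, adjusted p = 0.000351). The effects on Irx4 (0.52, adjusted p = 0.0264) and Notch2 (0.78, adjusted p = 0.0011) were more positive in adults, but with median-ratio scaling they were -0.15 and 0.12 (adjusted p = 0.559 for each). Those of Irx5 (-0.31, adjusted p = 0.375) and Notch1 (0.59, adjusted p = 0.221) did not pass, though Irx5 did with median-ratio scaling (-0.98, adjusted p = 0.0227). Over all 8909 genes, 68.7% differed by adjusted p (59.4% more positive and 9.29% more negative in adults), and 53% with median-ratio scaling. Stage, tissue preparation and the kind of Cre differ together here and cannot be told apart.

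Of the 58 other pathway genes, 38 were tested in adult cells, with a median log2 fold change of 0.66 against 0.57 over all genes. Of these 2 were called lower and 8 higher, where 8.45% and 28% of all genes tested were, and 7 were lower and 26 higher by adjusted p alone, where 18.1% and 60.6% were. With median-ratio scaling 4 were called lower and 2 higher (16.3% and 10.8% of all genes), and 11 were lower and 12 higher by adjusted p alone (35.1% and 33.2%). These counts lie near or below the shares of all genes. The number of higher genes thus changed with the scaling of the libraries, and the values relative to the median of all genes are given with each gene.

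Mib1, the ubiquitin ligase that lets a ligand-bearing cell activate Notch in its neighbour, had the highest fold change of the list. It went from 4.92 ± 0.263 RPKM in Ctrl to 22.8 ± 2.34 in icKO cells (log2 fold change 2.19, or 1.62 relative to the median, adjusted p = 3.98e-07). Among genes of receptor cleavage, Ncstn, a subunit of γ-secretase, rose by 1.64 (relative value 1.07, adjusted p = 1.35e-06), Adam10, the protease of the outer cut, by 1.39 (0.83, adjusted p = 3.65e-06) and Furin, which cleaves the receptor during its maturation, by 1.10 (0.53, adjusted p = 2.1e-05). In contrast Aph1a, another γ-secretase subunit, fell by 1.31 on the log2 scale (relative value -1.87, adjusted p = 3.42e-05), from 14.4 ± 2.23 to 5.73 RPKM. Poglut1, which adds glucose to the receptor, rose by 1.18 (0.61, adjusted p = 1.96e-05). In the nuclear complex, the coactivator Maml3 rose by 1.43 (0.86, adjusted p = 0.000203) and the deacetylase Hdac1 by 1.52 (0.96, adjusted p = 0.000861). Dtx2, a Deltex ubiquitin ligase, rose by 1.01 (0.44, adjusted p = 0.000532). Irx1, an Iroquois paralog, fell by 1.02 on the log2 scale (relative value -1.58, adjusted p = 0.00262), from 3.08 ± 0.873 to 1.44 ± 0.182 RPKM. With median-ratio scaling the higher genes called were Mib1 and Ncstn, and the lower genes called were Aph1a, Irx1, Jag2 and Psen2. Jag2, a Jagged ligand, was then at -1.03 (adjusted p = 0.011), against -0.50 unscaled (adjusted p = 0.12), and Psen2, a presenilin of γ-secretase, at -1.02 (adjusted p = 0.000201), against -0.47 (adjusted p = 0.011).

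**Figure D5:**
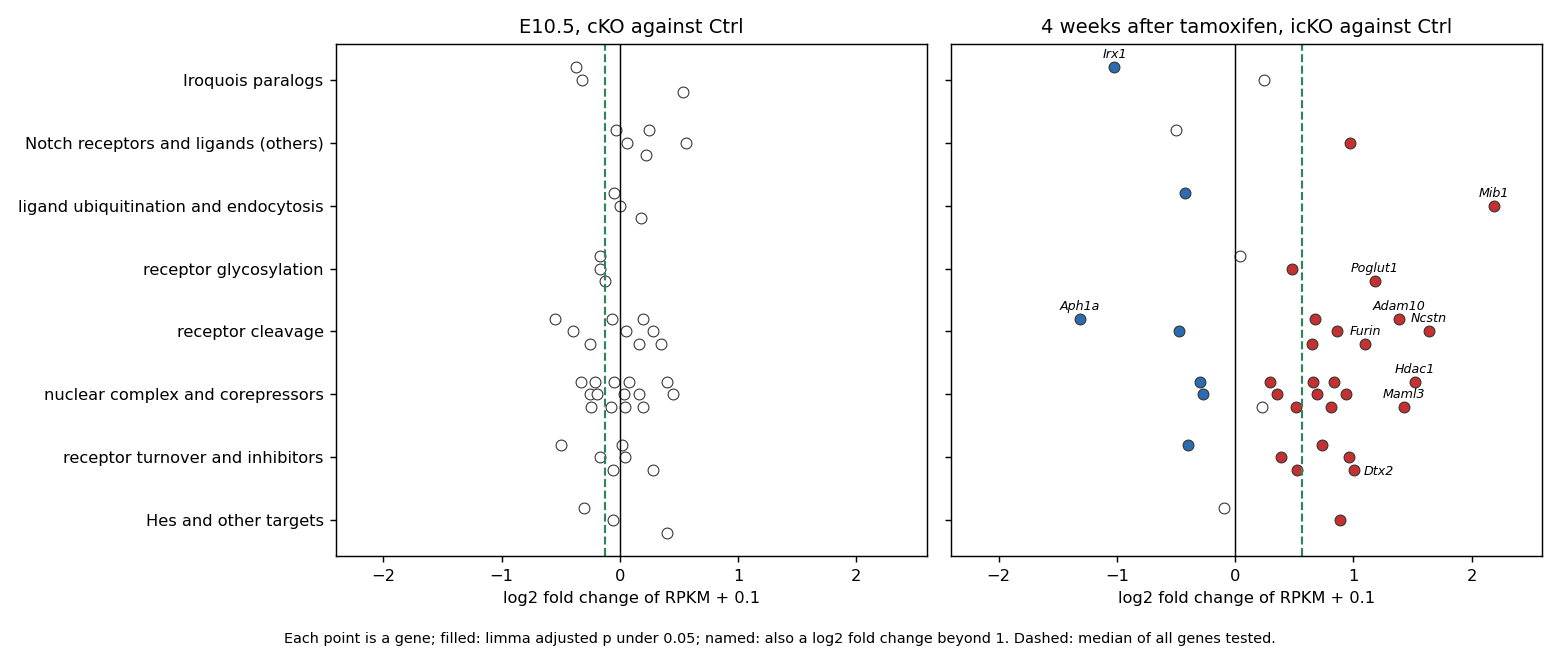
Log2 fold change of RPKM + 0.1 (horizontal axis) of each other pathway gene tested, by role (rows), at E10.5 (left) and 4 weeks after tamoxifen (right). Filled points have a limma adjusted p under 0.05, named points also a fold change beyond 1, and dashed lines mark the medians of all genes tested. None is filled at E10.5, and in adults Mib1 lies farthest to the right at 2.19 and Aph1a farthest to the left at -1.31.

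The genes whose log2 levels went most closely with each member over the 12 samples were found among 11492 genes. The 12 points share their libraries and fall into groups by stage and knockout, so these values mainly describe differences between groups. For Irx3, Irx4, Heyl and Dll4 the embryonic and adult samples overlapped. Irx3 averaged 4.15 RPKM in E10.5 cKO and 3.96 in adult icKO, and Irx4 7.0 in E10.5 cKO and 6.83 in adult Ctrl. For Irx4 they were Myocd, the cardiac coactivator myocardin (Pearson r = 0.9639), Trib2 (0.9636) and Adh5 (0.956), and for Hey2 they were Pde3b (0.9947), Pmf1 (0.9926) and Hsp90b1 (0.9924). Irx3 went with Mtus2, Adi1 and Gpr27 (0.9353 to 0.9487), and Irx5 with Edn1, Hist1h2ad and Alg10b (0.9576 to 0.9647). Notch1 went with Ggta1 (0.9985) and Dock6 (0.9966), Notch2 with Cttnbp2nl, Ajuba and Capn12 (0.9936 to 0.996), Jag1 with Arhgap45, Cdca2 and Sept9 (0.9977 to 0.9978), and Dll4 with Flt1, an endothelial receptor of vascular growth factor, Ly6e and Ehd2 (0.9699 to 0.9749). Hey1 went with Palm, Sox7 and Zfp111 (0.9889 to 0.9896) and Heyl with Kat6b, Ltbp4 and Fam43a (0.8611 to 0.9017).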

How the data were processed

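RNA of E10.5 hearts and adult cardiomyocytes was sequenced after depletion of ribosomal RNA. Per the submitters' processing notes, cutadapt 2.6, STAR 2.5.3a, HOMER 4.11.1 and DESeq2 1.12.4 were used with mm10 (GRCm38). The gene annotation, the strand setting of the counting and the reads to which RPKM were scaled are not given in the sources used here. The authors deposited 1 table per stage with RPKM for 20775 genes per sample, beside the log2 fold change and FDR of their own comparison, which were not used. The E10.5 knockout columns are headed icKO and were taken as cKO from the labels.

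Each table was fitted with limma 3.58.1 (lmFit, eBayes with trend, R 4.3.3) after adding 0.1 to each RPKM and taking log2, a scale that understates changes of low genes. Genes whose RPKM averaged more than 1 in the 6 samples entered, and Benjamini-Hochberg adjustment ran over all of them. A call needed an adjusted p under 0.05 together with an absolute log2 fold change above 1, the thresholds of the study. With 3 samples per group the smallest two-sided p of an exact permutation test is 0.1, so limma was used. The fit was tested on simulated data.

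Depth was estimated from low RPKM and GENCODE transcript lengths, since the tables hold no counts: between 61% and 67.9% of values of up to 8 reads lay within 0.1 of a whole read, where 20% would by chance. Estimated reads give counting error only. Coordinates are GENCODE's on GRCm38.

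The genes named are the 10 members, each pathway gene called at a stage, Med30, and per member the 3 genes with the highest Pearson correlation over 12 samples. A few genes that these rules name are not reported here. Irx1, Irx2, Irx6, Hes1, Notch3 and Rbpj at E10.5 were added after their values were seen. So were Jag2 and Psen2 in adults, the overlapping genes and some of the marker genes. The members and all lists were chosen with earlier results of these data known. Alternatives were pseudocounts of 1 and 0.01, other RPKM filters, quantile normalization, median-ratio scaling, leaving the 20 most abundant genes out of the scaling, eBayes with no trend, blocking on replicate number, and leaving out each replicate in turn.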

Additional observations from a re-analysis of the deposited data

Results flagged for a closer look

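The knockout effect differed between the stages for 3 of the 5 members tested at both, by the contrast in the limma fit of all 12 samples. Of all 8909 genes tested in this way 68.7% differed, so the count of 3 is near what the other genes show. For Irx3 the adult minus the embryonic log2 fold change was -1.12 (adjusted p = 0.00634), with icKO below Ctrl in all 3 adult samples and overlapping groups at E10.5. For Irx4 the difference was 0.52 (adjusted p = 0.0264), with knockout samples below all Ctrl samples at both stages. For Notch2 it was 0.78 (adjusted p = 0.0011), with knockout samples above all Ctrl samples at both stages. With median-ratio scaling the differences were -1.80 (adjusted p = 0.000351), -0.15 and 0.12 (adjusted p = 0.559 for both of the latter).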

How the results depend on the processing

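The 2 members called at E10.5 and the 0 pathway genes called there did not change in number under any alternative run. In adults the members called numbered 2, but 1 with a pseudocount of 1 or a mean RPKM above 5, and 1 to 3 when a replicate was left out: 1 without Ctrl replicate 1, where Notch2 was at 0.97, and 3 without Ctrl replicate 3, where Notch1 was at 1.18. Median-ratio scaling also called 2, Irx3 and Irx4 (-1.36), but not Notch2 (0.52). Adult pathway genes called numbered 10, but 6 with a pseudocount of 1, 5 with a mean RPKM above 5, 6 with median-ratio scaling or quantile normalization, and 9 to 11 without a replicate. Members that differed between the stages numbered 3, but 1 when the 20 most abundant genes were left out of the scaling and 2 to 4 without a replicate, where Irx4 lost its call in 6 of the 12 fits. The sign turned with median-ratio scaling, quantile normalization and the scaling that leaves out those 20 genes for Jag1 (0.0258, 0.0204 and 0.0781) and Dll4 (0.0103, 0.00738 and 0.0612) at E10.5, and with the first 2 for the Irx4 difference between stages (-0.15 and -0.13). Without a replicate the log2 fold change at E10.5 ranged from -0.24 to 0.0149 for Jag1, -0.29 to 0.12 for Dll4 and -0.077 to 0.29 for Irx5, and in adults from -0.38 to 0.00699 for Irx5. The scalings move the median of all genes, which bears on these turns; the cause of the other changes was not tested. With the replicate number as a block, 2 members were called at each stage, 0 and 10 pathway genes, and 4 members differed between stages; Notch1 in adults then passed the adjusted p (0.014), as did its difference between stages (0.045). Same-numbered samples correlated at -0.0698 to 0.101 at E10.5 and 0.0433 to 0.153 in adults, and 1 and 2 of 3 pairs correlated best with their own number. In adults the endothelial marker sum rose with the replicate number in both groups, while the fibroblast sum did so in Ctrl alone. The labels name no pairing, and whether same-numbered samples share a batch was not tested. Depth limits the adult values of Hey1, Hey2, Heyl, Jag1 and Dll4. Of the values of single members under all alternatives, judged by sign and adjusted p without the fold threshold, 282 kept both, 10 no longer passed, 12 passed anew and 12 turned.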
